A study of Mus musculus with 6 samples.

Results

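The replication-dependent histone genes are the clustered genes that encode the core histones H2A, H2B, H3 and H4. Their transcript levels were examined in corneal epithelial cells of mice in which *Ptch1*, the receptor that holds Hedgehog signaling off, was deleted from keratocytes. Members were all genes of the expression table whose symbol begins with H2ac, H2bc, H3c or H4c followed by a number. They were 51 of 17784 genes, with 15 encoding H2A, 13 H2B, 11 H3 and 12 H4. By the RefSeq annotation (assembly GRCm38.p6), 42 of them lay in the large cluster on chromosome 13 and 9 in the smaller cluster on chromosome 3. The control group held 3 samples, labelled WT and ctrl, from *Ptch1*f/f mice without Cre. The Ptch1-ablated group held 3 samples, labelled KO, from *Prrx1-CreERT;Ptch1*f/f mice. All mice received 3 doses of tamoxifen, the drug that activates the Cre recombinase, with an interval of 2 months in the labels and an age of 10 weeks. The floxed line had been backcrossed to C57BL/6, and *Prrx1-CreERT* is a knock-in line active in keratocytes, corneal endothelium and other ocular mesenchyme rather than in the epithelium measured here. The labels do not say whether corneas of several mice were pooled in a sample, so p-values measure the spread between these samples.

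Core histones package newly made DNA into nucleosomes, and cells produce them in large amounts in S phase. Most of their mRNAs carry no poly(A) tail and end instead just after a short stem-loop, which is bound by the stem-loop binding protein SLBP and is required for 3′ end cutting, translation and rapid decay when DNA synthesis stops. Some members also give polyadenylated transcripts in cells that have left the cell cycle, and the replacement variants such as H3.3 are made from ordinary polyadenylated mRNAs throughout the cycle. In the corneal epithelium, cell division takes place in the basal layer and at the limbus, while the upper layers are differentiated.

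The stem-loop is shown for members of each family that are described one by one in the comparison, since it is the feature that sets these mRNAs apart from others. H2bc4, the most abundant member, had no match, and the H2ac24 model ended 3 bases past its stem-loop, too early for the full window. In each line the 16 letters of the stem-loop are in capitals between 5 flanking letters on each side, read from the GENCODE M21 transcript of the gene.
H2ac18: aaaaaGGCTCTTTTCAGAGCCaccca
H2bc8: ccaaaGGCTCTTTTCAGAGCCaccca
H3c15: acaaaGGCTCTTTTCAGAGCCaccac
H4c8: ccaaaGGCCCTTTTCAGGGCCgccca
H4c18: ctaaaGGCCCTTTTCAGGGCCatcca
H4c9: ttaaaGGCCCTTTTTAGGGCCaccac

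The transcripts of 36 of the 51 members held such a stem-loop, against 0.148% of 58797 protein-coding transcripts. The form seen in H2ac18, H2bc8 and H3c15 was the most common, with 19 members among H2A, H2B and H3. The form in H4c8 and H4c18 was found in 6 members, all encoding H4, and the form in H4c9 was shared with H4c14 alone. Of the 15 members without a match, 10 had transcript models that stopped within 30 bases of the stop codon, so the annotation does not reach the place where a stem-loop would lie. One of the other members without a match was H2bc4, whose model ran 745 bases past the stop codon. A poly(A) signal, AATAAA or ATTAAA, lay in the last 40 bases of the transcript for 10 members, against 48.7% of all protein-coding transcripts. The last 30 bases are shown for the 2 of these whose groups did not overlap in the comparison, with the signal in capitals.
H4c9: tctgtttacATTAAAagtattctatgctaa
H2bc21: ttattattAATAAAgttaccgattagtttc

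The 6 samples had 20296741 to 20625813 expected counts, so that 3 counts, used as the floor, amounted to 0.145 to 0.148 CPM (counts scaled to library size). Intervals and floors cover counting error only. The cornea-specific keratin *Krt12* stood at 37107 to 49487 TPM (a transcript level scaled for gene length and library size), and the summed immune markers at 135 to 192 TPM in all samples but Ptch1-ablated replicate 1. That sample stood apart from the others. Its immune markers summed to 681 TPM, mostly *S100a9* (373 TPM), *Itgam* (129 TPM), *S100a8* (78.8 TPM) and *Cd68* (65.5 TPM). In the other samples *S100a9* had 0.64 to 7.02 TPM and *S100a8* 0 to 0.94 TPM. *Itgam* and *Cd68* were also present there, at 67.0 to 113 TPM and 45.3 to 51.3 TPM. Other genes of that list were near 0 in it, such as *Ptprc* at 0.02 TPM and *Csf1r* at 0.21 TPM. Its conjunctival markers summed to 4683 TPM, against 1403 to 2906 TPM elsewhere. Nearly all of that came from the keratins *Krt13*, *Krt4* and *Krt19*, while *Krt8* was lowest in this sample (5.90 TPM) and *Muc5b* had 0.01 TPM. Limbal markers summed to 2839, 3274 and 4034 TPM in the controls and to 6719, 4397 and 5124 TPM in the Ptch1-ablated samples, but the single genes were mixed. Of 10 tested, *Mt2* and *Socs3* rose and *Abcg2* fell at an edgeR adjusted p of 0.05. *Krt15*, *Gpha2*, *Ifitm3* and *Trp63* overlapped between the groups. *Krt14*, a keratin of basal and limbal cells, had 534 to 644 TPM in the controls and 2420 to 5798 TPM in the Ptch1-ablated samples (log2 fold change 2.81, edgeR adjusted p = 0.00769, and 0.0538 without control replicate 2). The summed TPM of the S-phase and of the mitosis genes described below was likewise higher in every Ptch1-ablated sample than in every control. Within the controls the order differed between lists. Replicate 3 had the highest limbal sum but the lowest sum of the histone members. Its S-phase sum was also the lowest, at 970 TPM against 1075 and 1106 TPM. The mitosis sum instead followed the limbal order, at 434, 542 and 751 TPM in control replicates 1, 2 and 3. The part of the markers in the histone, S-phase and mitosis values was not tested. Stromal markers were highest in control replicate 3, at 56.1 TPM against 3.75 to 8.88 TPM. *Ptch1* itself had 517, 659 and 682 normalized counts in the controls and 390, 445 and 471 in the Ptch1-ablated samples. The study's methods describe libraries made after removal of ribosomal RNA, and the labels name an Illumina RNA preparation kit. How much of the tailless histone mRNA either preparation would keep was not tested, and the levels below are those of whatever reached the libraries.

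Core histone transcripts were a small part of these libraries, and few genes supplied them. The 51 members summed to 242, 254 and 227 TPM in control replicates 1, 2 and 3 and to 301, 245 and 239 TPM in Ptch1-ablated replicates 1, 2 and 3. They took 0.0062% to 0.0081% of all counts. Only H2bc4, H2ac18 and H2ac24 had a mean of 10 TPM or more, and together they held 75.9% to 86.8% of the members' TPM in each sample. Another 12 members lay between 1 and 10 TPM. The remaining 36 members, 70.6% of the 51, were below 1 TPM, where 32.7% of all genes were found. The median member stood at 0.365 TPM and the median gene of the table at 8.31 TPM. Zero counts were common, since 39 members were at 0 in at least 1 sample, 8 exceeded 3 counts in every sample and 14 exceeded 3 counts in none.

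**Figure D1:**
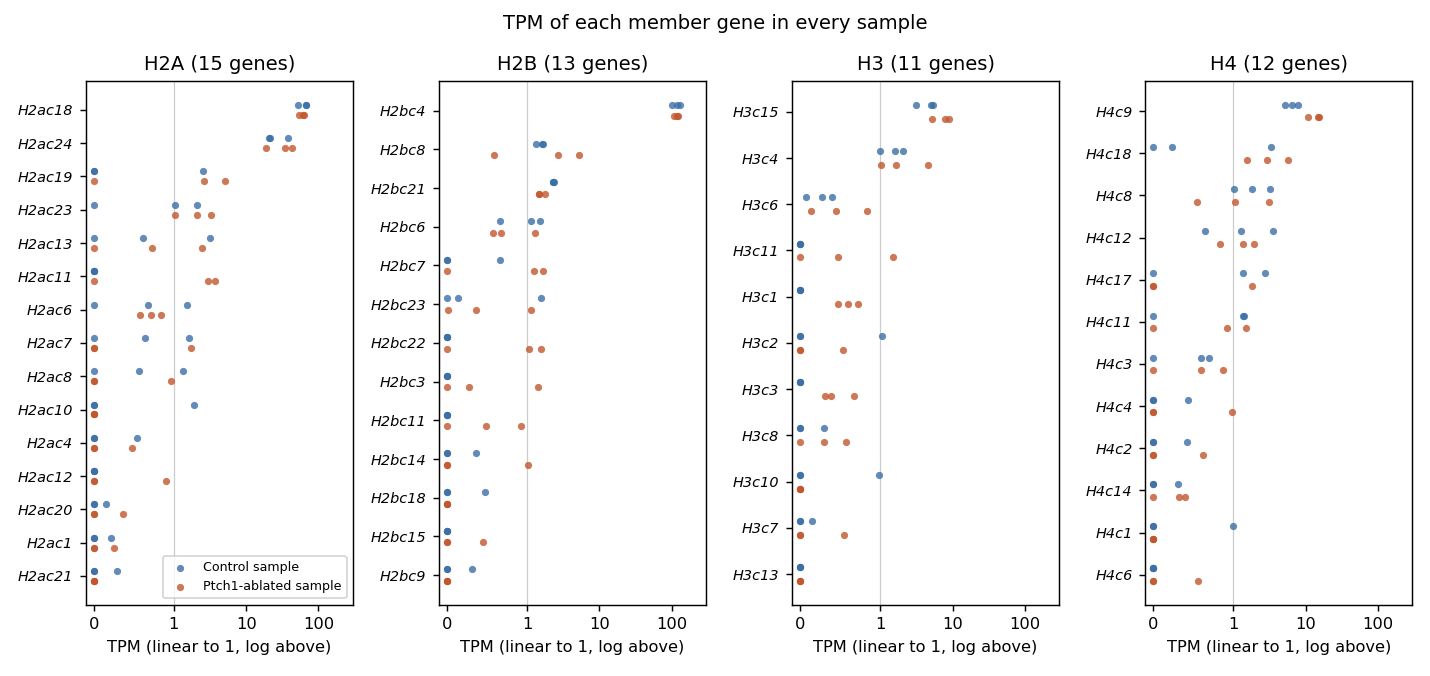
TPM of each of the 51 members (rows, by family and ordered by mean level) in the 3 control samples (blue) and the 3 Ptch1-ablated samples (orange); the horizontal axis is linear up to 1 TPM and logarithmic above. H2bc4, H2ac18 and H2ac24 lie between 19.1 and 131 TPM, and most other members lie below 1 TPM with samples at 0.

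Near-identical copies shared much of their sequence, which limits what can be said of single genes. RSEM, the program used for quantification, divides reads that match several genes between them, and 157 of the members' 167 values above 0 were not whole numbers. That share was 94.0%, against 39.4% over all genes, with values within 0.005 of an integer taken as whole. Over the members' annotated transcripts, a median of 53.6% of all stretches of 50 bases (50-mers) occurred also in another gene, and the share exceeded 50% in 26 members. Every 50-mer of H2ac19 and 89.2% of those of H2ac18 were present in another member. H2ac24 and H2ac23 shared 93.1% of the 50-mers of H2ac24, and 85.6% of those of H4c18 were found in other members. H4c9 and H2bc4 shared 28.9% and 29.3% with other members. Their annotated transcripts, of 727 and 1156 bases, are longer than the models behind the deposited values. Those models had implied effective lengths (the length open to reads) of 354 and 679 bases, so the shared part of what was quantified may be larger. H2bc21, whose transcript is long, shared none, and its counts were whole numbers in all 6 samples. H2ac23 showed the division of reads most plainly, with 5.03, 0 and 10.06 expected counts in the controls and 5.03, 10.06 and 15.09 in the Ptch1-ablated samples, steps of one fixed amount.

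**Figure D2:**
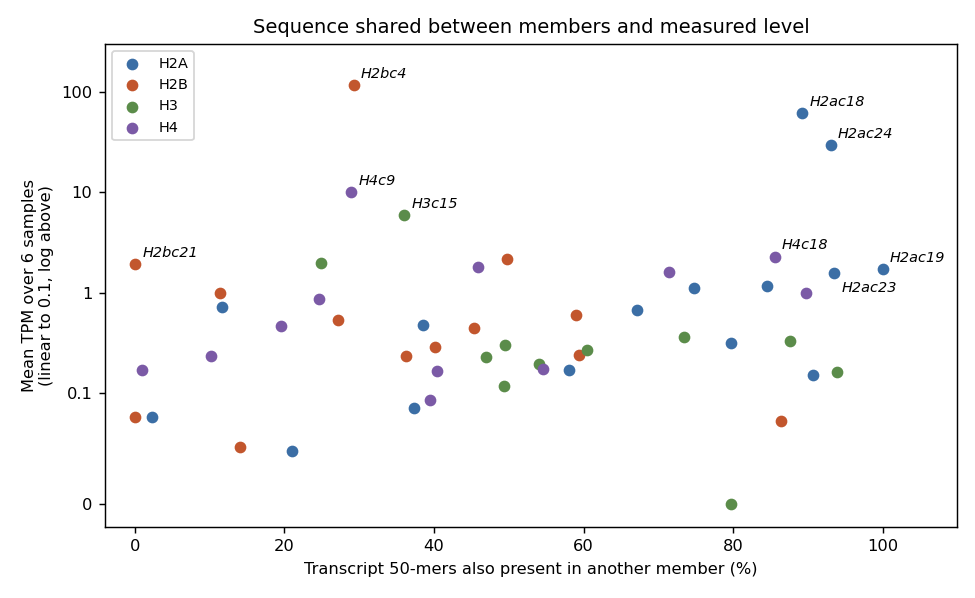
Share of each member's transcript 50-mers that also occur in another member (horizontal axis, percent) against its mean TPM over the 6 samples (vertical axis, linear to 0.1 and logarithmic above), colored by family. Among the 3 highest members, H2ac18 and H2ac24 share 89.2% and 93.1% of their 50-mers and H2bc4 29.3%.

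Only 9 members had enough counts for the comparison between groups, made with edgeR's quasi-likelihood test over 12999 genes. Of these, H4c9 rose in Ptch1-ablated epithelium, and it was the 1 member called, where a call needed a 2-fold change or more and an adjusted p no higher than 0.05. Upregulated calls made up 2.34% of all tested genes, and no member was called down, where downregulated calls made up 0.892%. Without the fold threshold the counts were again 1 up and 0 down, beside 7.61% and 6.41% of all genes. The groups did not overlap for H4c9 (upward, as in 19.7% of all tested genes) and for H2bc21 (downward, as in 20.3%), 39.9% of tested genes in both directions, and the same 2 members had an unadjusted p under 0.05, against 33.5% of all genes. Used in place of edgeR, limma-voom called 1 member up and DESeq2 2, and both called 0 down.

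**Figure D3:**
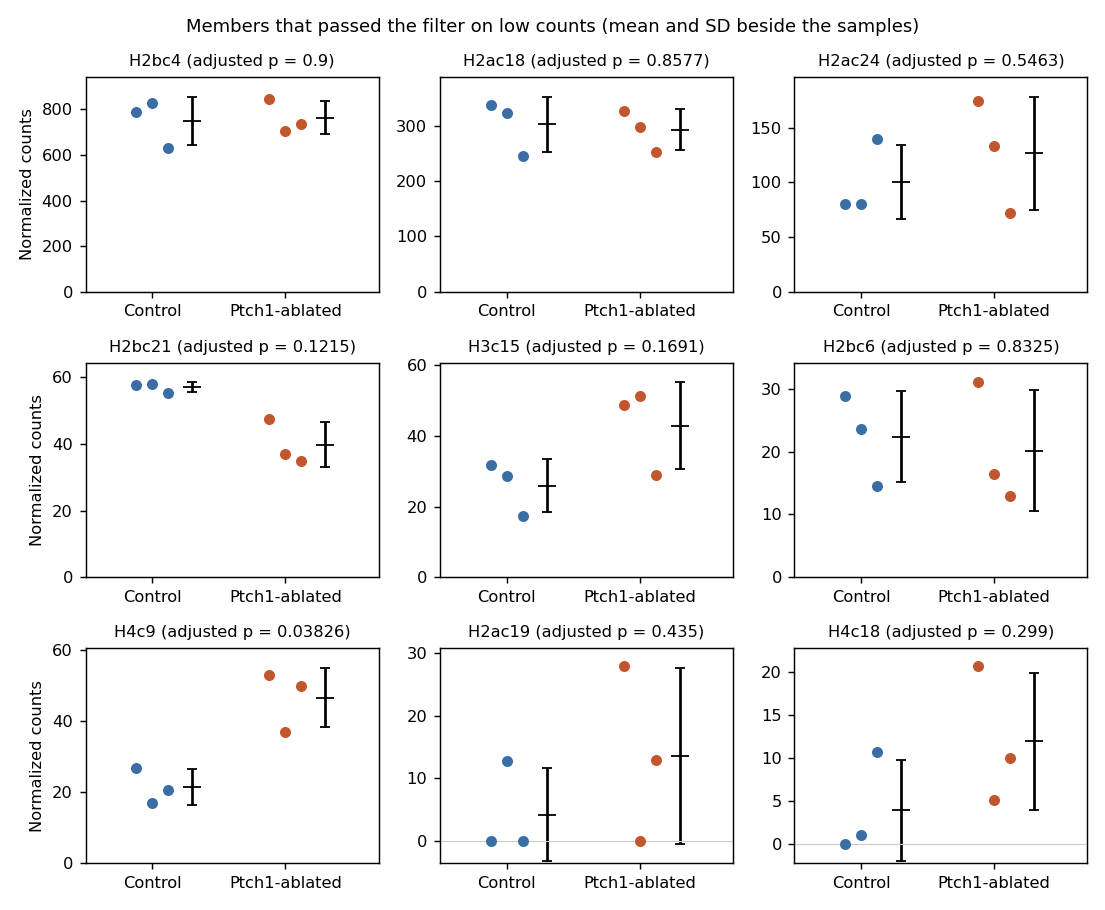
Normalized counts of the 9 members that passed the filter on low counts, by sample (points) with the group mean and SD beside them, for control (blue) and Ptch1-ablated (orange) samples; the adjusted p is edgeR's. The groups do not overlap for H4c9, which is higher after Ptch1 ablation, and for H2bc21, which is lower and has an adjusted p of 0.1215.

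H4c9, the most abundant H4 gene in these cells, had 7.86, 5.15 and 6.38 TPM in control replicates 1, 2 and 3. It had 14.7, 10.7 and 15.2 TPM in Ptch1-ablated replicates 1, 2 and 3. Every Ptch1-ablated sample lay above every control, replicates 2 and 3 as well as the outlying replicate 1. In normalized counts the values were 26.8, 16.7 and 20.4 in the controls against 52.7, 36.9 and 49.8, a rise of 1.12 on the log2 scale (standard error, SE, 0.27, edgeR adjusted p = 0.0383). The direction held with each sample left out, at log2 fold changes of 0.97 to 1.32, but the adjusted p then ran from 0.0514 to 0.140, so the call depended on all 6 samples. The annotated transcript of H4c9 has both the stem-loop and the ATTAAA end printed above, and 19.2% of its 50-mers occur in H4c18. The model behind the deposited counts was shorter, with an implied effective length of 354 bases. These counts therefore do not show whether the measured transcripts carried the ATTAAA end.

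The other H4 genes were low and uneven. H4c18 had 0, 0.24 and 3.35 TPM in the controls and 5.61, 1.56 and 2.93 TPM in the Ptch1-ablated samples, so the groups overlapped (log2 fold change 1.57, SE 0.98, edgeR adjusted p = 0.299). H4c8 had 3.17, 1.78 and 1.01 TPM against 3.15, 0.55 and 1.05 TPM, with almost the same highest value in each group. The 12 H4 genes summed to 15.7, 13.2 and 15.7 TPM in the controls and 29.6, 15.8 and 22.7 TPM after Ptch1 ablation. On the TPM scale the groups were just separate, and on the scale of normalized counts they overlapped, with 45.2 to 55.6 in the controls and 54.4 to 109 in the Ptch1-ablated samples. Without H4c9, the remaining 11 genes summed to 7.88, 8.08 and 9.28 TPM against 14.9, 5.19 and 7.45 TPM, and only Ptch1-ablated replicate 1 exceeded the controls.

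The H3 genes were lower still. H3c15, the highest of them, had 5.40, 5.0 and 3.12 TPM in the controls and 7.89, 8.84 and 5.14 TPM in the Ptch1-ablated samples. Replicate 3 of the Ptch1-ablated group fell within the control range, and the log2 fold change in normalized counts was 0.72 (SE 0.33, edgeR adjusted p = 0.169). H3c4 had 1.00, 1.58 and 2.09 TPM against 4.57, 1.64 and 1.01 TPM, and H3c6 had 0.40, 0.28 and 0.08 TPM against 0.45, 0.84 and 0.14 TPM. Both overlapped between groups and were too low for the test. Summed over the 11 H3 genes, the controls had 7.10, 7.99 and 6.36 TPM and the Ptch1-ablated samples 14.9, 14.0 and 8.70 TPM. The H3 sum was thus the 1 family sum whose groups were separate in TPM and in normalized counts. In counts they were only just separate, with 40.7, 42.3 and 31.1 in the controls and 84.8, 77.0 and 43.8 in the Ptch1-ablated samples. The log2 ratio was 0.85 in counts and 0.67 without Ptch1-ablated replicate 1. H3c1 and H3c3 were at 0 in all controls and above 0 in all Ptch1-ablated samples. They were the only 2 of the 42 untested members whose groups did not overlap, where 39.9% of all tested genes did not. Their counts were 2.67, 2.00 and 3.04 for H3c1 and 1.30, 2.72 and 1.55 for H3c3, at or near the floor, so no fold change is given.

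The H2A genes were carried by H2ac18 from chromosome 3 and H2ac24 from chromosome 13. H2ac18 had 68.3, 68.3 and 52.4 TPM in the controls and 63.4, 60.5 and 53.8 TPM in the Ptch1-ablated samples, and the groups overlapped throughout (log2 fold change -0.05, SE 0.15, edgeR adjusted p = 0.858). Its near-identical neighbour H2ac19 was at 0, 2.52 and 0 TPM against 5.06, 0 and 2.63 TPM. Summed to remove the division between them, the pair had 68.3, 70.8 and 52.4 TPM against 68.4, 60.5 and 56.4 TPM. H2ac24 was the more variable gene, with 20.4, 21.3 and 37.7 TPM in the controls and 42.7, 34.1 and 19.1 TPM in the Ptch1-ablated samples, so the lowest sample of all was Ptch1-ablated (log2 fold change 0.33, SE 0.35, edgeR adjusted p = 0.546). H2ac6, a gene with known polyadenylated transcripts, stayed between 0 and 1.51 TPM. H2ac11 had no counts in the controls and 12.44, 0 and 14.52 counts in the Ptch1-ablated samples. DESeq2 called it (adjusted p = 0.0309), although 1 of 3 samples was at 0, while edgeR's filter left it out.

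The H2B genes were carried by H2bc4, a gene known for polyadenylated transcripts and the most abundant of the members. It had 119, 131 and 100.4 TPM in the controls and 123, 107 and 117 TPM in the Ptch1-ablated samples, which lay within the control range (log2 fold change 0.03, SE 0.12, edgeR adjusted p = 0.900). It made up 89.3% to 95.5% of the TPM of the 13 H2B genes. H2bc8, the next in level, had 1.32, 1.65 and 1.60 TPM against 5.29, 0.59 and 2.64 TPM, and Ptch1-ablated samples were both the highest and the lowest. H2bc21, also known for a polyadenylated transcript, had 2.26, 2.37 and 2.29 TPM in the controls and 1.79, 1.46 and 1.44 TPM in the Ptch1-ablated samples. All controls lay above all Ptch1-ablated samples, but the log2 fold change of -0.52 (SE 0.20) had an unadjusted p of 0.0355 and did not pass after adjustment (edgeR adjusted p = 0.1215). H2bc6, at 0.58 to 1.51 TPM, overlapped between groups with a log2 fold change of -0.15 (SE 0.41).

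Summed by family, H2A and H2B differed little between groups. The H2A sum was 94.0, 95.6 and 97.7 TPM in the controls and 119, 100.5 and 84.4 TPM after Ptch1 ablation. The H2B sum was 125, 137 and 107 TPM against 137, 114 and 123 TPM. In normalized counts the log2 ratios were 0.12 for H2A and 0.01 for H2B, against 0.85 for H3 and 0.64 for H4. These ratios depended on the leading genes. Without H2ac18 and H2ac24 the H2A ratio was 0.78, and without H2bc4 the H2B ratio was -0.11 in counts and 0.58 in TPM. Without H4c9 the H4 ratio was 0.17, and the groups overlapped in these 3 reduced sums. Without H3c15 the H3 ratio was 1.06 and the groups were separate, on 9.12 to 14.2 counts in the controls. Ptch1-ablated replicate 1, the sample that stood apart in its markers, had the highest H2A, H2B, H3 and H4 counts of all 6 samples. Without it the log2 ratios were -0.05, -0.09, 0.67 and 0.35 for H2A, H2B, H3 and H4. The part of the marker differences in these sums was not tested, and in bulk samples more cells in S phase and more histone RNA per cell cannot be told apart. The chromosome 3 cluster summed to 76.0, 78.6 and 58.5 TPM in the controls against 78.5, 71.1 and 63.3 TPM. The chromosome 13 cluster had 166, 175 and 168 TPM against 223, 174 and 176 TPM, and only replicate 1 of the Ptch1-ablated group lay well above the controls.

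**Figure D4:**
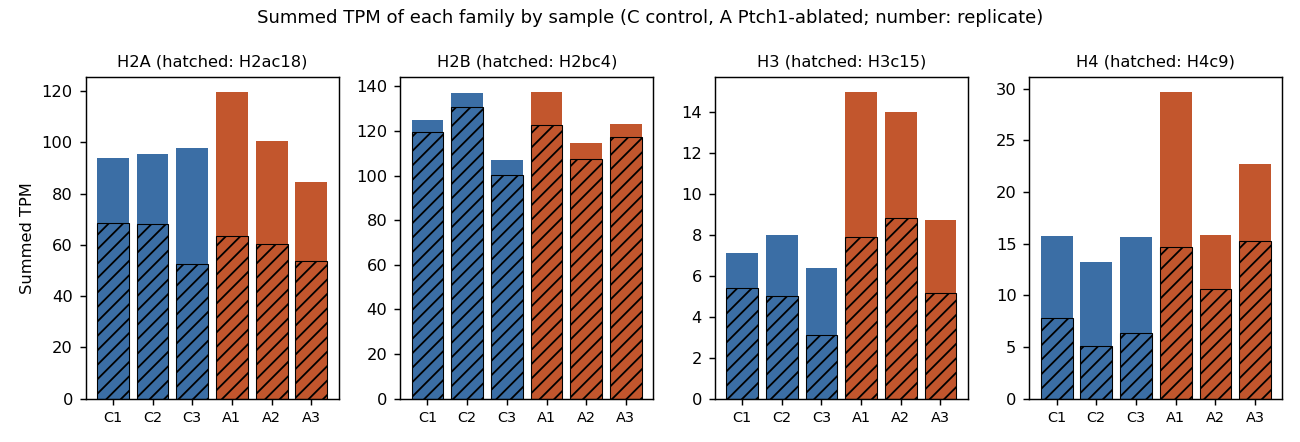
Summed TPM of the H2A, H2B, H3 and H4 genes in control replicates 1 to 3 (C1 to C3, blue) and Ptch1-ablated replicates 1 to 3 (A1 to A3, orange), with the share of the leading gene hatched. The H3 sums are 6.36 to 7.99 TPM in controls and 8.70 to 14.9 TPM after Ptch1 ablation, and the H2A and H2B sums overlap.

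The 42 members that were not tested had at most 27.2 counts in any sample. Summed, they gave 72.2, 68.7 and 101 counts in the controls and 152, 86.7 and 87.8 counts in the Ptch1-ablated samples, and the last 2 lay within the control range. Mean counts were higher in the Ptch1-ablated group for 24 of them and in the control group for 18. No count was seen in any control for 10 of them and in any Ptch1-ablated sample for 7. Counts above 0 were found for 23, 28 and 24 of the 51 members in the controls and for 34, 28 and 30 in the Ptch1-ablated samples.

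Replacement histones differed by family in how their levels compared with those of the members. *H3f3a* and *H3f3b*, which encode H3.3, summed to 2027 to 2186 TPM in the controls and 2115 to 2148 TPM in the Ptch1-ablated samples. This was 254 to 327 times the TPM of the 11 H3 members in controls and 144 to 243 times in Ptch1-ablated samples. The 6 H2A variant genes summed to 6.08 to 6.59 times the H2A members in controls and 6.58 to 9.30 times in Ptch1-ablated samples. *H2bu2*, a variant H2B gene, had 0.26 to 1.48 TPM against 107 to 137 TPM for the H2B members. Of 10 replacement histone genes tested, 3 passed an adjusted p of 0.05, all upward and none by 2-fold. Over all tested genes 7.61% passed upward and 6.41% downward. The median log2 fold change was 0.15 beside -0.01 over all tested genes. *H2az1*, which encodes H2A.Z, had a log2 fold change of 0.56, *H2ax*, whose product marks DNA breaks, 0.53, and *H3f3b* 0.27 (edgeR adjusted p = 0.0480, 0.0216 and 0.0480). *H3f3a* had a log2 fold change of -0.07 and did not pass. With 1 sample left out, *H3f3b* did not pass in any fit (adjusted p 0.0629 to 0.172, edgeR), *H2ax* was lost without control replicate 1 or 2 (0.0662 and 0.0989), and *H2az1* passed only without Ptch1-ablated replicate 2 (0.0275).

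Linker histone genes, whose products bind the DNA between nucleosomes, were measured beside the members. Of 5 tested, 3 rose at an adjusted p of 0.05, 2 of them by at least 2-fold, and none fell, with a median log2 fold change of 0.78. Over all tested genes, 7.61% rose and 6.41% fell, and 2.34% rose by at least 2-fold. By limma-voom 2 linker histone genes rose. *H1f2*, a clustered gene of the S-phase type, had 77.8, 81.2 and 50.9 TPM in the controls and 197, 159 and 186 TPM in the Ptch1-ablated samples. The groups were well separated, with a log2 fold change of 1.41 (SE 0.19, edgeR adjusted p = 0.00999). *H1f0*, the replacement linker histone of differentiated cells, had 131 to 143 TPM against 202 to 240 TPM (log2 fold change 0.78, adjusted p = 0.00908, edgeR). *H1f3* had a log2 fold change of 1.39 on 3.93 to 5.96 normalized counts in the controls and 11.4 to 17.9 in the Ptch1-ablated samples, and its adjusted p of 0.0494 exceeded 0.05 with any sample left out. Without control replicate 2 the adjusted p was 0.0520 for *H1f2* and 0.0538 for *H1f0*, and both passed with any other sample left out.

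The genes that make, process and place histones were read against all tested genes, of which 7.61% rose and 6.41% fell at an adjusted p of 0.05. Of 17 genes of histone 3′ end processing, 1 rose and none fell. That gene was *Casp8ap2*, which encodes a processing and transcription factor of the histone locus body (log2 fold change 0.35, adjusted p = 0.0415, edgeR). *Slbp*, which encodes the stem-loop binding protein, had 851, 776 and 676 normalized counts against 1079, 864 and 892, with a log2 fold change of 0.30 (SE 0.12, edgeR adjusted p = 0.125). *Lsm11*, a subunit of the U7 particle that cuts histone pre-mRNA, and *Zfp473*, a partner of SLBP, had log2 fold changes of 0.01 and 0.24 and did not pass. Of 10 genes that drive histone gene transcription, none passed in either direction by edgeR, DESeq2 or limma-voom, and 2 had an unadjusted edgeR p under 0.05 upward. In that list *Npat*, the coactivator of the histone clusters, had a log2 fold change of 0.12. Of 9 genes of histone mRNA decay, 1 rose, *Eri1*, which encodes an exonuclease that binds the stem-loop (log2 fold change 0.42, adjusted p = 0.0489, edgeR). Of 20 chaperone genes, 2 rose and none fell. These were *Asf1b* and *Chaf1a*, which encode chaperones for newly made H3 and H4, with log2 fold changes of 0.72 and 0.68 (adjusted p = 0.0171 and 0.0120, edgeR). With 1 sample left out, *Casp8ap2* and *Eri1* passed in no fit (adjusted p 0.0561 to 0.132 and 0.0605 to 0.169, edgeR), *Asf1b* was lost without control replicate 1 or 2 (0.0541 and 0.0851) and *Chaf1a* without control replicate 2 (0.0650). DESeq2 put 7 chaperone genes past its adjusted p, and neither it nor limma-voom found a fall in these lists. Median log2 fold changes were 0.04 for 3′ end processing, 0.17 for transcription, 0.03 for decay and 0.13 for chaperones.

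**Figure D5:**
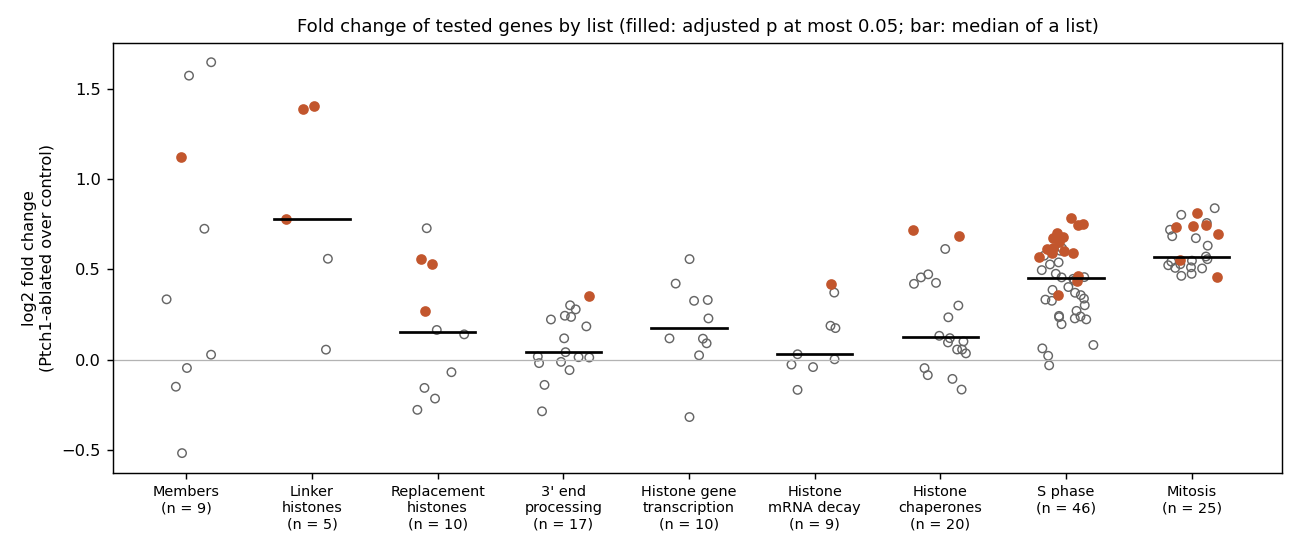
Log2 fold change (Ptch1-ablated over control, vertical axis) of each tested gene of the members and of 8 lists of related genes, with filled points for an adjusted p no higher than 0.05 and bars at the list medians. The S-phase and mitosis genes lie mostly above 0 with medians of 0.45 and 0.57, and the 9 members spread from -0.52 to 1.65.

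The genes of DNA replication and mitosis are expressed in the same phases of division as the members or just after. Of 46 replication and S-phase genes, 16 rose and none fell at an adjusted p of 0.05, none by 2-fold, and of 25 mitosis genes 7 rose and none fell. Over all tested genes 7.61% rose and 6.41% fell. *Rrm2*, a subunit of the enzyme that makes deoxynucleotides, had a log2 fold change of 0.78 (adjusted p = 0.00647, edgeR), *Mki67*, a proliferation marker, 0.73 and *Top2a*, a topoisomerase of dividing cells, 0.74 (adjusted p = 0.0241 and 0.0303), while *Pcna* and *Mcm2*, of the replication fork, had 0.45 and 0.46 and did not pass (adjusted p = 0.0663 and 0.0954). These counts depended on single samples. The S-phase count by edgeR was 8, 1 and 9 without control replicate 1, 2 or 3 and 11, 10 and 17 without Ptch1-ablated replicate 1, 2 or 3. Without control replicate 2 the upward calls over the whole table, at 2-fold or more, also fell, from 304 to 45. The mitosis count was 1, 0 and 20 without control replicate 1, 2 or 3 and 2, 1 and 1 without Ptch1-ablated replicate 1, 2 or 3.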

How the data were processed

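Bulk RNA-seq of 6 corneal epithelial samples was analysed. The authors aligned reads with Bowtie2 2.2.5 and quantified genes with RSEM 1.2.12, and the submitters' processing notes name the build mm9. Expected counts, as deposited, are the authors' RSEM estimates of reads per gene without depth scaling. The deposited TPM values are scaled by the authors for gene length and depth. The deposited FPKM values served only to check implied gene lengths. Columns of other samples in use numbered 0. Expected counts were rounded, filtered with filterByExpr, scaled by TMM and tested over the whole table with edgeR 4.0.16 (quasi-likelihood test) in R 4.3.3, with Benjamini-Hochberg adjustment over 12999 genes. Calls required the study's thresholds, a 2-fold change or more and an adjusted p no higher than 0.05. Normalized counts are rounded counts divided by the TMM-scaled library size and multiplied by its mean; family sums use unrounded counts and have no test. With 3 samples against 3, an exact permutation p cannot go below 0.10. Alternatives were DESeq2 1.42.0, limma-voom (limma 3.58.1), RLE and upper-quartile factors, other count filters, unrounded counts, limma on log2(TPM + 1) or log2(TPM + 0.1) with a mean TPM of at least 1 or no filter, a replicate block, and each sample left out in turn. The procedure was tested on simulated data. All 6 values were to be given for the 3 highest genes of each family and for those with an adjusted p of at most 0.05, and the named genes outside the members were *Slbp*, *Npat* and others whatever their values, with the smallest p of each list. The members and lists were chosen with earlier results of these data known. Stem-loops, poly(A) signals and shared 50-mers were searched in GENCODE M21 transcripts (GRCm38), 1 coding model per gene, on the sense strand. The poly(A) signals searched were AATAAA and ATTAAA. These models differ from those behind the deposited values.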

Additional observations from a re-analysis of the deposited data

How the results depend on the processing

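The count of members called up was 1, and it was 2 under DESeq2 (H4c9 and H2ac11) and 0 under limma on log2(TPM + 1) with or without a filter, where H4c9 passed the adjusted p with a log2 fold change of 0.96. With 1 sample left out it ranged from 0 to 1, and the 1 was H2ac11 without Ptch1-ablated replicate 2. The count called up at the adjusted p alone was 1, then 2 under DESeq2, 3 under limma on log2(TPM + 1) without a filter (H4c9, H3c1 and H3c3), and 0 to 1 with 1 sample left out. The counts of members down were 0 in all 17 alternatives. H4c9 passed the adjusted p in the 11 alternatives that kept all samples, at 0.0209 to 0.0467, and in none that left one out. Family log2 ratios moved by less than the SD within groups pooled over both, a spread that Ptch1-ablated replicate 1 itself widens. Without that sample H2A and H2B changed sign, to -0.05 and -0.09, and H4 fell from 0.64 to 0.35. With 1 sample left out they ranged from -0.05 to 0.25 for H2A, from -0.09 to 0.08 for H2B, from 0.67 to 1.09 for H3 and from 0.35 to 0.85 for H4. Single-gene differences near 0 changed sign. With 1 sample left out, the log2 fold change ranged from -0.18 to 0.0478 for H2ac18, from -0.0867 to 0.10 for H2bc4 and from -0.60 to 0.0873 for H2bc6, and H2bc4 had -0.0059 in the 3 fits to TPM. The cause of these changes was not tested. *H1f2* had an adjusted p of 0.0520 without control replicate 2 and passed in its 16 other alternatives. The number of mitosis genes up ranged from 0 to 20 with 1 sample left out and reached 19 under DESeq2. Samples sharing a replicate number had deviations from their group means that correlated at 0.105, -0.0137 and 0.0189. Other combinations of a control and a Ptch1-ablated sample ran from -0.181 to 0.182. These few values gave no sign of pairing by number but cannot decide whether the samples were paired. With the replicate number as a block, the count of members called up was 1, again H4c9 (log2 fold change 1.13, adjusted p = 0.0407, edgeR). Depth limits the 42 members left out of the test, which had at most 27.2 counts in any sample.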
